A study of Brassica napus with 14 samples.

Results

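Genes whose transcripts stood highest in MG, a late stage of seed development in Brassica napus, were described across seed development. A gene was a member when its value in MG was at least 5 FPKM and at least 2-fold above the highest of the 4 other stages, on the log2(FPKM + 1) scale. FPKM is a read count per transcript, divided by transcript length and by the size of the library. The difference between MG and the highest other stage on this scale, here called the margin, was thus at least 1 in every member. Of the 19509 genes with at least 5 FPKM in MG, 2358 were members (12.1%), out of 96219 genes in the table. Storage proteins and oleosins made up 54 of them and were set aside, which left 2304 other members at 1471 Arabidopsis loci, with 38 genes that the table pairs with no locus.

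All samples came from the cultivar DH12075, grown in chambers under long days with no treatment named, and flowers were pollinated by hand. OV was whole ovules on day 0, GLOB whole seeds 7 days past fertilization, HEART whole seeds at 10 days, MG whole seeds at 28 days and DS whole seeds at 35 days. There were 3 libraries for each of OV, GLOB, HEART and MG, and 2 for DS. The labels do not spell out MG or DS, and mature green seed and dry seed are readings of those letters. Each value below is the single FPKM that the authors deposited for a gene at a stage. The depth of the libraries and the spread between them are unknown, and no difference could be tested. The members were chosen by the same values, so their being highest in MG is a description and not a finding.

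A whole seed holds embryo, endosperm and seed coat, and in such bulk samples fewer cells of a type and less RNA per cell cannot be told apart. During maturation the embryo of a Brassica seed takes up sucrose and amino acids from the mother plant and lays down storage protein, oil and phytate. Fatty acids are made in the plastid, elongated and desaturated at the endoplasmic reticulum and packed as triacylglycerol in oil bodies. Seeds of this family also store glucosinolates and the enzyme myrosinase that splits them. Later the seed dries, with LEA and heat shock proteins among the products of that phase. Roles given below are those known from Arabidopsis, and symbols were attached to the Arabidopsis loci from general knowledge of their nomenclature.

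The tissue label was set against marker genes. Storage protein and oleosin copies summed to 79.6 FPKM in OV and 102 in GLOB, 125 in HEART, then 536376 in MG and 23901 in DS, so MG was the stage of the storage transcripts. Seed coat markers summed to 597 FPKM in OV and 1830 in GLOB, 2103 in HEART, then 1169 in MG and 40.8 in DS, and 2 of the 13 copies with at least 5 FPKM in MG were members, both of them TT10, a laccase of seed coat browning. Ovule markers summed to 60.6 FPKM in OV and 74.3 in GLOB, 39.5 in HEART, then 4.96 in MG and 5.42 in DS, and endosperm markers to 2.05 FPKM in OV and 6.24 in GLOB, 15.5 in HEART, then 5.85 in MG and 0 in DS. The embryo meristem markers WUS, STM and WOX2 each stayed under 1 FPKM in MG. The part of these cell types in the members' values was not tested.

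The 2304 members outside the storage group held 22.0% of all FPKM in MG, a sum of 332250. The same genes held 3.82% of the FPKM in OV, 4.1% in GLOB, 4.24% in HEART and 5.64% in DS. The 54 storage and oleosin members held 35.4% of MG. The deposited columns themselves do not add up to a common total, which was 1511540 FPKM in MG and between 446090 (OV) and 912604 (DS) elsewhere. Rescaling to a common sum moved the margin of single genes by a median of -1.14 on the log2 scale, and 958 of the 2304 members were left, all of them among the original ones. MG was still the highest stage for 82.3% of the members on that scale. With this median shift taken out of every margin, the common sum gave 2360 genes. That setting was added after seeing the data, and a count near the original follows largely from taking out the shift.

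Most members stood only a little above the threshold, and a small group stood far above it. Their MG value ran from 5.01 to 12619 FPKM with a median of 31.6, and 488 members had at least 100 FPKM, 58 at least 1000 and 8 at least 5000. The margin ran from 1.00 to 11.91 with a median of 1.75, against a median of 5.11 in the 54 storage and oleosin members and -0.31 over all 19509 genes. It was under 2 in 1356 members, at least 3 in 426, at least 5 in 79 and at least 7 in 26. In 332 members every other stage was under 1 FPKM, and 29 of these were listed at 0 in all other stages.

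**Figure D1:**
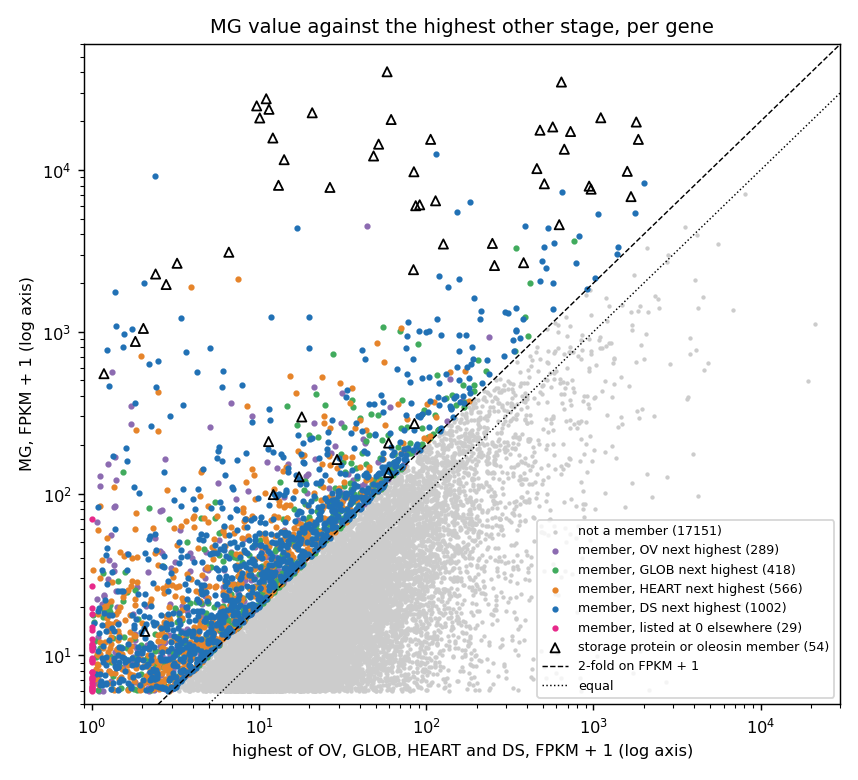
MG value of each gene with at least 5 FPKM in MG (vertical axis) against the highest of its 4 other stages (horizontal axis), as FPKM + 1 on log axes. The 2304 members other than storage proteins and oleosins run from the 2-fold line to a margin of 11.91, and the storage and oleosin members lie mostly far above the line, with a median margin of 5.11.

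Set against single stages, MG was at least 2-fold higher than OV in 8058 of the 19509 genes (41.3%) and lower in 952 (4.88%). Against GLOB it was higher in 6814 (34.9%) and lower in 1796 (9.21%), and against HEART higher in 6663 (34.2%) and lower in 1598 (8.19%). Against DS it was higher in 7192 (36.9%) and lower in 2743 (14.1%). The filter used the MG value alone, so genes under 5 FPKM in MG and high in another stage are missing from the lower counts. The higher counts also depended on the scale. On a common sum they were 3227 against OV, 3219 against GLOB, 2786 against HEART and 4482 against DS. MG was the highest stage with no minimum margin in 7304 genes (37.4%). The same rule applied to the other stages gave 1145 of 20384 genes for OV (5.62%), 379 of 20562 for GLOB (1.84%), 685 of 21101 for HEART (3.25%) and 4524 of 19730 for DS (22.9%). On the deposited scale DS thus had more such genes than MG and each early stage had fewer. The place of OV depended on the scale. On a common sum OV had 2842 such genes against 1010 for MG, and on quantile-normalized values 1953 against 1840.

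The stage that came next after MG divided the members. DS was next highest in 1002 of the 2304 (43.5%), HEART in 566 (24.6%), GLOB in 418 (18.1%) and OV in 289 (12.5%), and 29 members were listed at 0 in all other stages. Among all genes outside the storage group that were highest in MG by any margin, DS came next in 40.7%, GLOB in 26.7%, HEART in 18.5% and OV in 13.8%. In members with DS next, the DS value had a median of 26.1% of the MG value. It was 4.08% where OV came next, 13.5% where GLOB did and 2.85% where HEART did. The split itself uses the DS value, so a higher DS share where DS came next follows in part from the split. DS was under 1 FPKM in 301 of the 566 members with HEART next, and in 547 of the 1273 members with any earlier stage next. The members with DS next were fewer but held more of the MG signal, 227387 FPKM against 104534 FPKM for those with an earlier stage next. The order of DS and HEART at the top was kept on a common sum (401 members with DS next and 275 with HEART). The order of GLOB and OV was not, with 88 members with GLOB next and 165 with OV. Relative to the median shift these were 313 and 461.

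**Figure D2:**
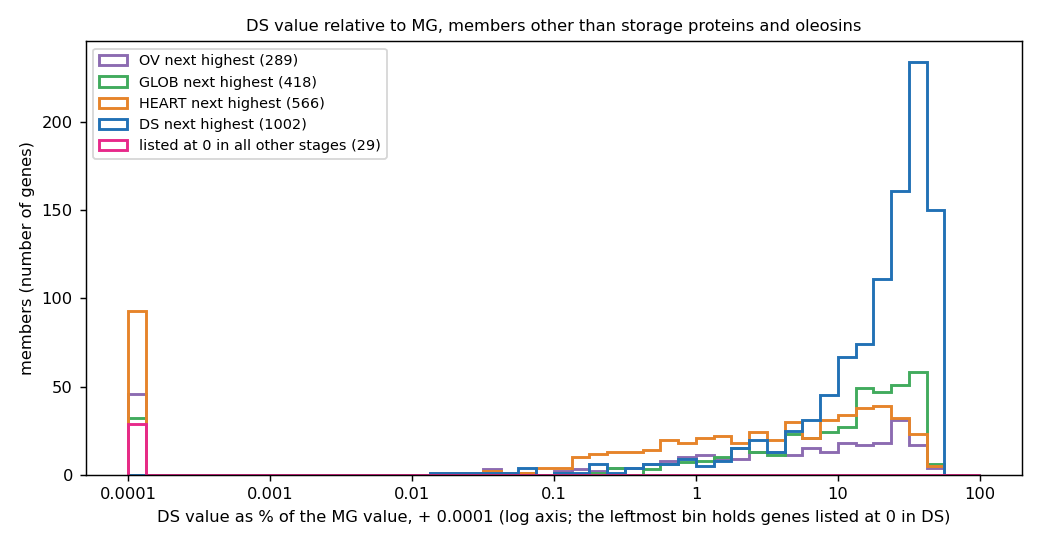
DS value as a percent of the MG value (log axis) for the 2304 members other than storage proteins and oleosins, as counts of genes split by the stage that came next after MG. Members with DS next pile up at the right, with a median of 26.1%, and members with HEART next spread to the left, with a median of 2.85% and many genes listed at 0 in DS. The split uses the DS value, so this contrast follows in part from it.

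Lists of seed genes were read through the same rule, with the members counted among the copies that had at least 5 FPKM in MG, called expressed copies below. Beside the 12.1% of all such genes, the members were 9 of 10 for suberin synthesis, 22 of 27 for glucosinolates and myrosinase, 7 of 9 for defensins, 24 of 35 for fatty acid elongation and desaturation and 49 of 75 for plastid fatty acid synthesis. At the other end stood abscisic acid genes (0 of 20), heat shock proteins (0 of 13), LEA proteins (1 of 62) and photosystem, antenna and Rubisco genes (4 of 105). All 17 lists together held 187 of the 2304 members. The filter used the MG value, so copies low at every other stage entered these counts only through MG, where membership is nearly given. For suberin synthesis, 10 of 52 copies passed the filter. The lists were chosen with results of these data known, so these counts describe the lists and call nothing particular to them.

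**Figure D3:**
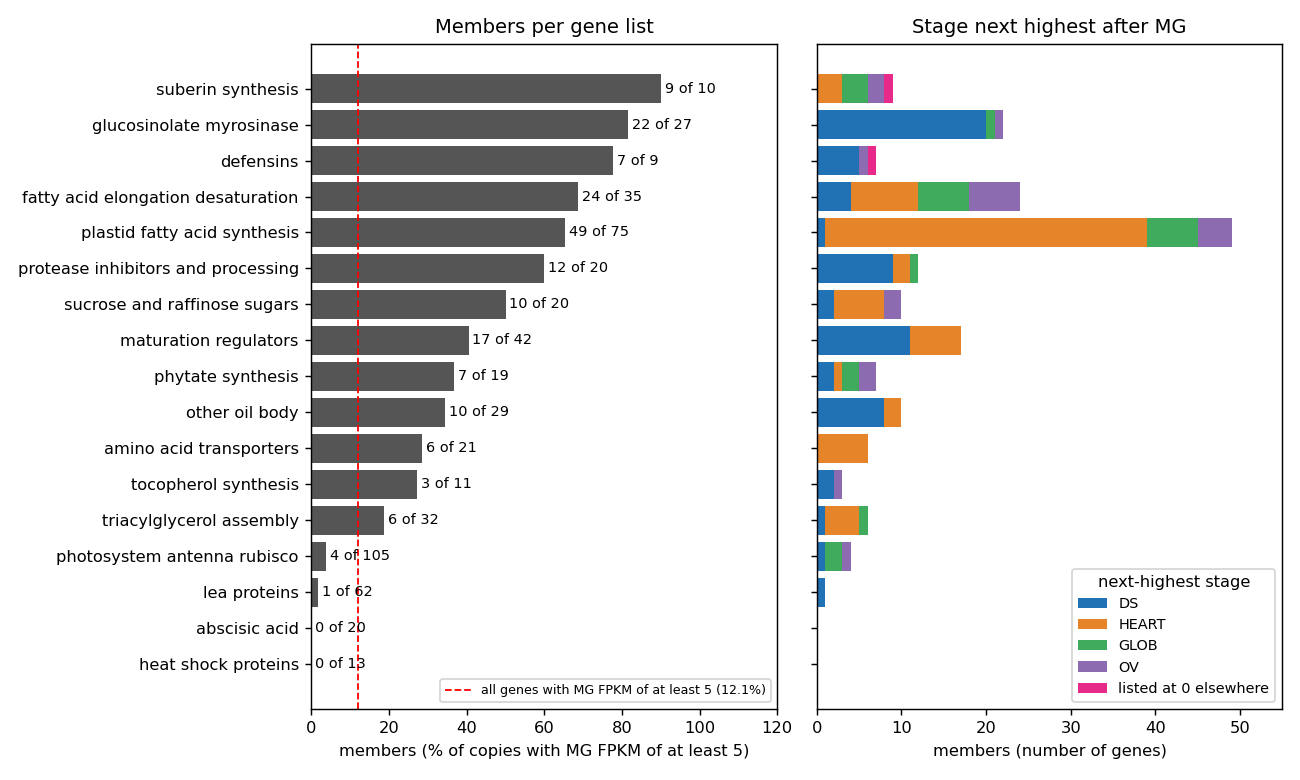
Left, members as a percent of the copies with at least 5 FPKM in MG for 17 gene lists, with the 12.1% of all such genes as a dashed line. Right, the same members as numbers of genes by the stage next highest after MG: HEART led in plastid fatty acid synthesis (38 of 49), DS in the glucosinolate and myrosinase list (20 of 22). On a common sum plastid fatty acid synthesis kept 13 members and its median margin turned to -0.088.

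The plastid pathway of fatty acid synthesis was represented along most of its length. Of its 75 copies with at least 5 FPKM in MG, 49 at 17 loci were members, and MG was the highest stage for 66. The copies summed to 931 FPKM in OV and 1640 in GLOB, 1763 in HEART, then 5700 in MG and 504 in DS. The median margin was 1.26, against -0.31 over all genes, and it turned to -0.088 on a common sum, where 13 copies were members. HEART was next highest in 38 of the 49 members. Set against single stages, 68 of the 75 copies were at least 2-fold higher in MG than in DS and 53 higher than in HEART.

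Several entry steps into the pathway had wide gaps between MG and the early seed. BCCP2, a biotin carrier subunit of plastid acetyl-CoA carboxylase, had 14.6 FPKM in OV and 31.4 in GLOB, 62.7 in HEART, then 347 in MG and 0.656 in DS over its 4 copies, all members. Its low point was DS, and HEART was its next stage. CAC2, the biotin carboxylase subunit, had 20.6 FPKM in OV and 29.3 in GLOB, 33.4 in HEART, then 154 in MG and 4.45 in DS over 2 copies, both members. BCCP1, the other biotin carrier subunit, had 73.4 FPKM in OV and 70.3 in GLOB, 63.2 in HEART, then 112 in MG and 45.2 in DS, and 1 of its 4 copies was a member. BCCP1 was thus the flatter of the 2 biotin carrier loci over the stages. The plastid pyruvate kinase subunits that feed the pathway are PKPB1 and PKPA. PKPB1 had 54.2 FPKM in OV and 88.6 in GLOB, 93.3 in HEART, then 483 in MG and 34.7 in DS. PKPA had 29.7 FPKM in OV and 58.1 in GLOB, 61.2 in HEART, then 445 in MG and 44.4 in DS. All 3 expressed copies of PKPB1 and all 4 of PKPA were members. The E1 alpha subunit of plastid pyruvate dehydrogenase had 42.5 FPKM in OV and 49.7 in GLOB, 64.5 in HEART, then 368 in MG and 21.5 in DS, with 4 of 5 expressed copies as members.

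In the elongation cycle itself MG lay closer to HEART at the loci named here than it did for BCCP2, CAC2 or pyruvate kinase. This contrast did not hold for every locus outside the cycle. CAC3, also of acetyl-CoA carboxylase, had 109 FPKM in MG and 49.6 in HEART, with all 4 copies as members. BCCP1 had 112 FPKM in MG and 63.2 in HEART, and GPT1, also on the list, had 135 and 55.8 FPKM. At CAC3, BCCP1 and GPT1 MG thus lay closer to HEART than at ACP1, KASI or KASII. ACP1, an acyl carrier protein, was the most abundant locus of the list, with 175 FPKM in OV and 569 in GLOB, 584 in HEART, then 1987 in MG and 25.7 in DS. KASI and KASII, the condensing enzymes for the middle and last rounds of the cycle, had all 4 expressed copies of each as members, with 198 and 217 FPKM in MG against 67.7 and 51.0 FPKM in HEART. MOD1, the enoyl-ACP reductase, had 37.1 FPKM in OV and 76.4 in GLOB, 83.9 in HEART, then 151 in MG and 7.69 in DS, and none of its 4 copies was a member, GLOB and HEART lying within 2-fold of MG. The same held for MCAMT, the malonyl transferase, which had 103 FPKM in MG and 64.7 in HEART. The expressed copies of the thioesterases differed by type. FATA1 and FATA2, which release oleate, had both expressed copies of each as members. Over all copies they had 79.9 and 52.6 FPKM in MG against 45.9 and 0.232 FPKM in DS. The FATA1 locus as a whole was thus less than 2-fold above DS. Its member copies had 0.122 and 0.0264 FPKM in DS, so the DS value came from other copies. FATB, which releases palmitate, had 48.7 FPKM in OV and 68.0 in GLOB, 72.3 in HEART, then 40.6 in MG and 87.7 in DS and no member, so its highest stage was DS.

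Desaturases and elongases summed to 481 FPKM in OV and 866 in GLOB, 1098 in HEART, then 7674 in MG and 387 in DS. The list had 24 members among 35 expressed copies and a median margin of 1.71, which was 0.43 on a common sum with 16 members. FAE1, the condensing enzyme that makes very long chain fatty acids such as erucic acid, had 0.359 FPKM in OV and 0.367 in GLOB, 1.34 in HEART, then 1791 in MG and 0.522 in DS over 5 copies, of which 2 passed 5 FPKM in MG and both were members. FAE1 was high in MG and near 0 in every other stage. FAD3, the endoplasmic reticulum desaturase that makes linolenic acid, had 66.3 FPKM in OV and 18.0 in GLOB, 16.8 in HEART, then 1405 in MG and 8.02 in DS, and its 5 expressed copies were all members. FAD2, the desaturase before it, had 49.7 FPKM in OV and 187 in GLOB, 327 in HEART, then 406 in MG and 79.3 in DS. FAD2 was nearly as high in HEART as in MG, and its single member was a minor copy at 6.01 FPKM in MG.

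The stearoyl-ACP desaturases followed. FAB2 had 45.4 FPKM in OV and 42.2 in GLOB, 69.7 in HEART, then 1572 in MG and 75.1 in DS. AAD5, of the same enzyme family, had 30.8 FPKM in OV and 97.6 in GLOB, 88.1 in HEART, then 1554 in MG and 111 in DS. Every one of the 4 copies of each was a member, and both loci were far higher in MG than at any other stage. Of the enzymes that complete the elongation cycle with FAE1, KCR1 had 313 FPKM in MG, 153 in HEART and 46.2 in DS, CER10 had 334, 140 and 11.9 FPKM in the same stages, and PAS2 had 144, 85.9 and 8.99. These 3 enzymes were within 3-fold of their HEART value in MG, unlike FAE1. The highest CER10 copy lost its place on a common sum, with a margin of -0.15. The plastid desaturase FAD6 had 79.0 FPKM in OV and 110 in GLOB, 178 in HEART, then 70.5 in MG and 33.2 in DS and no member, its highest stage being HEART.

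Triacylglycerol assembly had 6 members of 32 expressed copies, or 18.8% beside the 12.1% of all genes, and a median margin of 0.26 that turned to -0.61 on a common sum. DGAT1, the acyltransferase that completes triacylglycerol, had 7.48 FPKM in OV and 11.3 in GLOB, 14.7 in HEART, then 125 in MG and 142 in DS over 4 copies. It was high in both late stages, and none of its copies was a member. DGAT2, a second enzyme type for the same step, had 11.9 FPKM in OV and 16.8 in GLOB, 19.8 in HEART, then 68.9 in MG and 25.6 in DS, with 2 members. LACS9, a plastid long chain acyl-CoA synthetase, had 25.9 FPKM in OV and 21.3 in GLOB, 37.8 in HEART, then 94.4 in MG and 24.2 in DS, with 2 members, and GPAT9, for the first acylation of glycerol phosphate, had 109 FPKM in MG, 49.4 in HEART and 55.7 in DS, with 1 member. On a common sum the highest copies of LACS9 and GPAT9 had margins of -0.067 and -0.19.

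Oil body proteins other than oleosins were mostly shared between MG and DS. The list had 10 members among 29 expressed copies, 8 of them with DS next, and a median margin of 0.45 that turned to -0.27 on a common sum. CLO1, the major caleosin, had 0.765 FPKM in OV and 0.868 in GLOB, 0.764 in HEART, then 6813 in MG and 1117 in DS, all 3 copies being members. OBAP1A, an oil body associated protein, had 0.334 FPKM in OV and 0.450 in GLOB, 0.283 in HEART, then 2646 in MG and 788 in DS in a single copy. HSD1, a steroleosin, had 0.526 FPKM in OV and 0.702 in GLOB, 0.429 in HEART, then 2698 in MG and 3758 in DS, so it was higher in DS and had no member. LDAP3, a lipid droplet protein, had 23.1 FPKM in OV and 59.6 in GLOB, 102 in HEART, then 186 in MG and 28.6 in DS, so HEART and not DS came next.

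Sucrose enzymes and transporters had 10 members among 20 expressed copies and a median margin of 1.19, which was 0.06 on a common sum. SUS2, a sucrose synthase of the seed, had 0.0520 FPKM in OV and 0.119 in GLOB, 1.85 in HEART, then 535 in MG and 0.960 in DS, and both copies were members. SUS3, a second sucrose synthase, had 0.0619 FPKM in OV and 0.359 in GLOB, 0.827 in HEART, then 301 in MG and 219 in DS and no member because DS was within 2-fold of MG. SUS1 had 7.62 FPKM in MG and peaked at 225 FPKM in GLOB. SUS2 and SUS3 were thus highest in MG and SUS1 was not. SWEET15, a sucrose exporter, had 2.59 FPKM in OV and 14.1 in GLOB, 11.6 in HEART, then 136 in MG and 1.66 in DS, with 4 members of 4 expressed copies, and the phloem loader SUC2 had 17.3 FPKM in OV and 13.1 in GLOB, 17.72 in HEART, then 97.6 in MG and 30.4 in DS, with 2 of 4. Galactinol synthases GOLS1 and GOLS2, on the way to raffinose, had 151 and 400 FPKM in MG against 331 and 753 FPKM in DS, and no member.

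Of the amino acid transporters, some loci were highest in MG and others in HEART. There were 6 members among 21 expressed copies, all with HEART next, and a median margin of 0.28 that turned to -0.95 on a common sum. AAP2, an amino acid permease, had 2.61 FPKM in OV and 8.37 in GLOB, 17.0 in HEART, then 51.9 in MG and 1.39 in DS, with 2 members. UMAMIT28, an exporter, had 2.15 FPKM in OV and 19.2 in GLOB, 45.5 in HEART, then 65.3 in MG and 0 in DS, with 2 members. UMAMIT11 and UMAMIT14, exporters of the same family, had 23.3 and 12.7 FPKM in MG against 167 and 132 FPKM in HEART, and no member.

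Of the genes for phytate, the phosphorus store, 7 of 19 expressed copies were members, with a median margin of 0.52 that turned to -0.54 on a common sum, where none was left. MIPS2, a myo-inositol phosphate synthase, had 133 FPKM in OV and 86.3 in GLOB, 46.9 in HEART, then 501 in MG and 291 in DS, with 2 members. MIPS1, for the same step, had 0.639 FPKM in OV and 1.19 in GLOB, 108 in HEART, then 120 in MG and 0.569 in DS, so it was at a like level in HEART and MG and near 0 elsewhere. IPK1, the last kinase of the pathway, had 14.7 FPKM in OV and 11.4 in GLOB, 12.1 in HEART, then 55.7 in MG and 19.0 in DS, both copies being members. MRP5, the phytate transporter, had 17.2 FPKM in OV and 7.90 in GLOB, 11.0 in HEART, then 85.6 in MG and 49.3 in DS, with 1 of 4.

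Regulators of maturation had 17 members among 42 expressed copies at 8 loci, and a median margin of 0.54 that turned to -0.27 on a common sum with 13 members. DS was next highest in 11 of the members and HEART in 6. DOG1, the dormancy regulator, had 0.0610 FPKM in OV and 0.0751 in GLOB, 0.655 in HEART, then 567 in MG and 69.2 in DS over 5 copies, all members. MFT, which acts on germination, had 0.147 FPKM in OV and 0.0619 in GLOB, 0.155 in HEART, then 543 in MG and 317 in DS, with 1 of 4 copies as a member. Both were under 1 FPKM in OV, GLOB and HEART, and MFT had more left in DS than DOG1.

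FUS3, L1L and BZIP67 had HEART next in their summed values. FUS3 and BZIP67 were low again in DS, while L1L was closer to its HEART value there. The L1L member copy BnaN17g26900 had DS next, with 5.61 FPKM in DS against 2.87 FPKM in HEART. FUS3, a B3 regulator of maturation, had 0.0276 FPKM in OV and 0.110 in GLOB, 7.12 in HEART, then 75.6 in MG and 1.11 in DS. L1L, a LEC1-type subunit, had 2.49 FPKM in OV and 1.05 in GLOB, 9.53 in HEART, then 123 in MG and 6.70 in DS. BZIP67, a bZIP that acts on storage genes, had 0.0255 FPKM in OV and 0 in GLOB, 14.1 in HEART, then 110 in MG and 0.387 in DS. The expressed copies of these 3 loci, 2, 3 and 2 of them, were all members. LEC1 and LEC2, which act early, were at 0.497 and 0 FPKM in MG against 65.7 and 9.40 FPKM in HEART. ABI3 had 0.0499 FPKM in OV and 0.0978 in GLOB, 1.81 in HEART, then 146 in MG and 60.2 in DS, with 1 member of 2 copies, while ABI5 had 49.8 FPKM in OV and 17.62 in GLOB, 19.6 in HEART, then 93.7 in MG and 900 in DS and no member. WRI1, the regulator of plastid fatty acid synthesis, had 32.4 FPKM in OV and 20.1 in GLOB, 135 in HEART, then 148 in MG and 100 in DS. WRI1 was thus level between HEART and MG and had no member.

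Defence proteins included some of the highest transcripts of MG seeds. Defensins, small cysteine-rich antimicrobial proteins, had 7 members of 9 expressed copies and a median margin of 3.49, which was 2.77 on a common sum with 6 members. PDF1.1 had 1.14 FPKM in OV and 0.996 in GLOB, 0.282 in HEART, then 7323 in MG and 648 in DS. PDF1.2B had 2.99 FPKM in OV and 1.18 in GLOB, 0.426 in HEART, then 8863 in MG and 1243 in DS. PDF2.2 had 102 FPKM in OV and 14.1 in GLOB, 50.8 in HEART, then 10023 in MG and 184 in DS. In all 3 loci MG was the highest of the 5 stages by far and DS came next. PDF1.4 differed, with 3.02 FPKM in MG and 398 FPKM in DS.

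Kunitz-type and potato type I protease inhibitors and processing proteases had 12 members of 20 expressed copies. The median margin was 1.3, which was 0.58 on a common sum. All copies of the list, including those under 5 FPKM in MG, summed to 2825 FPKM in OV and 12746 in GLOB, 4882 in HEART, then 11045 in MG and 681 in DS, so GLOB had the highest sum. Much of it came from WSCP, a Kunitz-type protein, with 2631 FPKM in OV and 8511 in GLOB, 2971 in HEART, then 40.8 in MG and 24.2 in DS. The Kunitz locus AT1G73325 had 1.2 FPKM in MG against 1144 FPKM in GLOB. The potato type I inhibitor locus AT2G38870 had 83.0 FPKM in MG against 343 FPKM in DS, with 1 member of 2 expressed copies. KTI1, a Kunitz trypsin inhibitor, had 12.7 FPKM in OV and 215 in GLOB, 154 in HEART, then 9297 in MG and 8.10 in DS summed over 30 copies, of which 5 of the 7 expressed were members. A single copy, BnaN19g19610, carried 9193 of the 9297 FPKM in MG, with 1.2 FPKM in GLOB and 0.727 in HEART, and the early signal came from other copies. beta-VPE, the protease that matures storage proteins, had 2.65 FPKM in OV and 2.50 in GLOB, 4.51 in HEART, then 1546 in MG and 254 in DS, all 4 expressed copies being members. gamma-VPE and delta-VPE had no member, with 37.4 and 5.09 FPKM in MG against 110 and 2750 FPKM in GLOB. Close relatives of the same family thus had their highest values at different stages.

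Myrosinase and its partners had 22 members of 27 expressed copies and a median margin of 1.80, which was 1.07 on a common sum with 16 members. TGG1, a myrosinase, had 3.57 FPKM in OV and 3.02 in GLOB, 16.7 in HEART, then 1180 in MG and 161 in DS over 20 copies. All 11 of its expressed copies were members, with MG values between 11.2 and 230 FPKM and margins between 1.1 and 6.99. ESP, which steers the hydrolysis to nitriles, had 15.4 FPKM in OV and 42 in GLOB, 29.1 in HEART, then 3387 in MG and 1168 in DS, with 4 of 4 expressed copies as members. MBP2, a myrosinase-binding protein, had 303 FPKM in OV and 364 in GLOB, 200 in HEART, then 2559 in MG and 1195 in DS, with 3 of 6. The transporter GTR1, which moves glucosinolates into seeds, had 41.8 FPKM in MG against 76.7 FPKM in DS and no member, and its relative GTR2 had 19.8 FPKM in MG against 5.40 FPKM in DS, with 2 members.

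Suberin genes were low, with 9 members of 10 expressed copies at 4 loci, out of 52 copies in the table, and a median margin of 3.04 (2.16 on a common sum, where all 9 remained). ASFT, the feruloyl transferase of suberin, had 0.396 FPKM in OV and 1.11 in GLOB, 1.64 in HEART, then 73.2 in MG and 0.0537 in DS, with 4 members. FAR4, a fatty acyl reductase, had 0.0896 FPKM in OV and 0.0656 in GLOB, 0.0526 in HEART, then 22.2 in MG and 0 in DS. CYP86A1, an omega-hydroxylase, had 0.158 FPKM in OV and 0.0749 in GLOB, 0.123 in HEART, then 16.7 in MG and 0 in DS. None of the members had DS next, and the copies of FAR4 and CYP86A1 were listed at 0 in DS. So was MYB107, a regulator of seed coat suberin, which had 0.0266 FPKM in OV and 0.136 in GLOB, 0.226 in HEART, then 9.30 in MG and 0 in DS. Beside them the seed coat markers TT4 and BAN, of flavonoid and proanthocyanidin synthesis, had 991 and 106 FPKM in MG against 1341 and 248 FPKM in HEART and 34.0 and 0.0780 FPKM in DS. The list also held loci with another course. FAR1, a fatty acyl reductase, had 31.2 FPKM in OV and 0.502 in GLOB, 0.313 in HEART, then 0.926 in MG and 0.0942 in DS, and KCS2, an elongase, had 2.40 FPKM in OV against 1.34 FPKM in MG. KCS20, a further elongase, had 44.3 FPKM in MG and 35.9 in DS. The part of seed coat tissue in the suberin values was not tested.

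**Figure D4:**
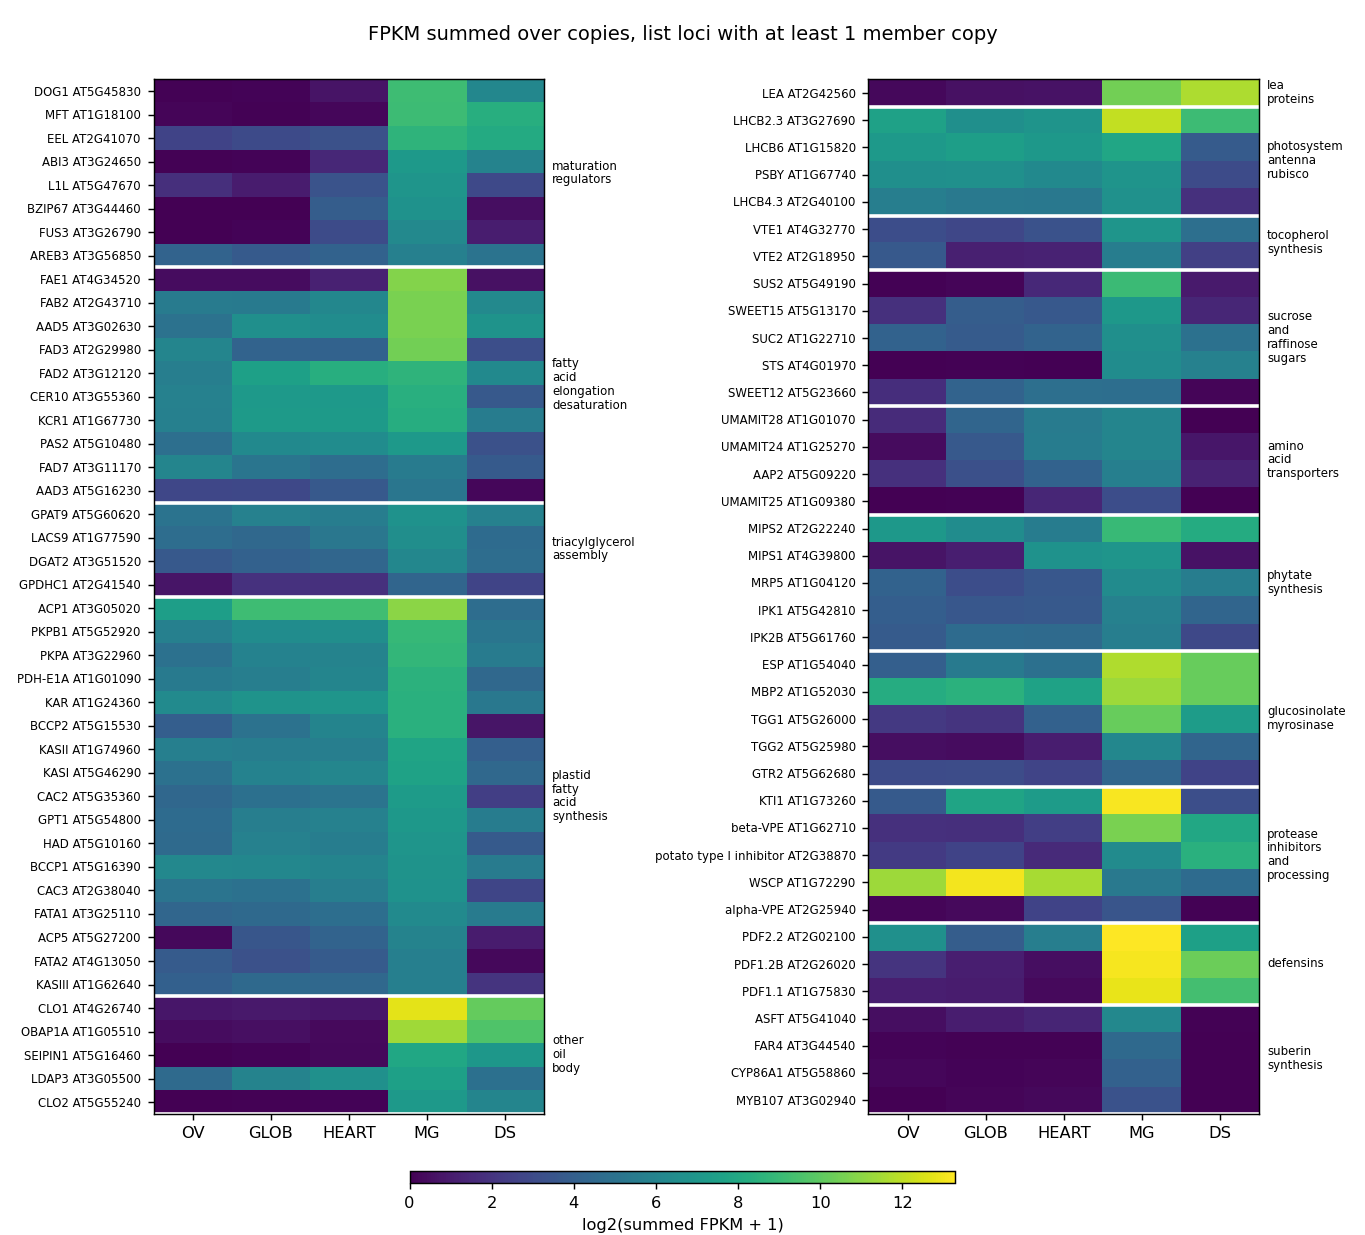
FPKM summed over all copies, as log2(summed FPKM + 1), of every listed locus with at least 1 member (lines) in the 5 stages (columns), grouped by list. Defensins and CLO1 are bright in MG and remain visible in DS, FAE1 and SUS2 are bright in MG alone, and WSCP, with 1 low member copy, is brightest in GLOB. On a common sum, where MG drops relative to the other stages, the median margin turned negative for plastid fatty acid synthesis, triacylglycerol assembly, other oil body, maturation regulator, phytate, tocopherol and amino acid transporter lists.

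The LEA and heat shock lists, tied to drying, had their highest sums in DS rather than MG. LEA proteins summed to 18.4 FPKM in OV and 32.4 in GLOB, 49.8 in HEART, then 44365 in MG and 121334 in DS, and of 62 expressed copies 62 were at least 2-fold higher in MG than in HEART while 35 were at least 2-fold lower in MG than in DS. Their median margin was -1.21, and it became 7.82 when DS was left out of the comparison. The single LEA member was a copy of AT2G42560, with 0.0748 FPKM in OV and 0 in GLOB, 0 in HEART, then 284 in MG and 26.3 in DS, although the 4 copies of that locus together were higher in DS. Heat shock proteins had a median margin of -2.59, with 12 of 13 expressed copies lower in MG than in DS. Abscisic acid genes were mixed. Their median margin, against the highest other stage of each copy, was -1.09, and 8 of 20 expressed copies were lower in MG than in DS. The list summed to 333 FPKM in MG and 834 in DS, with AHG1 highest in DS, AHG3 in GLOB and CYP707A1 in MG.

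MG was the highest stage for 18 of the 105 expressed copies of photosynthesis genes. The list had a median margin of -1.31, and 58 of these copies were lower in MG than in OV while 94 were higher than in DS. LHCB2.3, an antenna protein of photosystem II, had 194 FPKM in OV and 96.0 in GLOB, 119 in HEART, then 4367 in MG and 550 in DS, nearly all of it from 1 member copy at 4351 FPKM in MG. LHCB1.4, from the same antenna, had 650 FPKM in OV and 578 in GLOB, 573 in HEART, then 114 in MG and 41.1 in DS, so it ran the other way. LHCB6 had 140 FPKM in OV and 177 in GLOB, 136 in HEART, then 233 in MG and 13.0 in DS. LHCB4.3 had 50.4 FPKM in OV and 40.4 in GLOB, 38.4 in HEART, then 105 in MG and 2.54 in DS. Each had 1 member copy, and both loci were lowest in DS. Tocopherol genes had 3 members of 11, with a median margin of 0.25 that turned to -0.83 on a common sum, and these were both copies of VTE1 and 1 of VTE2. VTE1, tocopherol cyclase, had 7.84 FPKM in OV and 6.23 in GLOB, 9.06 in HEART, then 119 in MG and 28.2 in DS. VTE2, the prenyltransferase before it in the pathway, had 12.2 FPKM in OV and 1.28 in GLOB, 1.41 in HEART, then 48.5 in MG and 4.67 in DS.

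Outside the lists, the highest member of all was BnaN04g25150 at AT2G38530, a lipid transfer protein (LTP2), with 57.3 FPKM in OV and 2.51 in GLOB, 2.71 in HEART, then 12619 in MG and 114 in DS. It was near 0 in GLOB and HEART, and its margin was 6.78. BnaN06g38160 at AT5G45690 had 1.49 FPKM in OV and 1.37 in GLOB, 0.407 in HEART, then 8323 in MG and 2008 in DS. BnaN03g24590 at AT4G09600, the gibberellin-regulated GASA3, had 0.863 FPKM in OV and 0.811 in GLOB, 0.0867 in HEART, then 5452 in MG and 1759 in DS. Both kept a large value in DS, with margins of 2.05 and 1.63. BnaN14g59380 at AT2G43535, a knottin-fold defence protein, had 0.372 FPKM in OV and 0.824 in GLOB, 1.34 in HEART, then 4392 in MG and 15.8 in DS, so DS was far lower in that gene.

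Proteins of general cell function were also among the highest members. BnaN08g19790 at AT4G38740, the cyclophilin ROC1, had 75.5 FPKM in OV and 265 in GLOB, 363 in HEART, then 5356 in MG and 1066 in DS. BnaN02g00460 at AT3G09390, metallothionein MT2A, had 262 FPKM in OV and 196 in GLOB, 303 in HEART, then 4476 in MG and 387 in DS. BnaN03g00630 at AT5G02380, metallothionein MT2B, had 81.5 FPKM in OV and 760 in GLOB, 308 in HEART, then 3638 in MG and 643 in DS. These 3 had at least 75.5 FPKM at every stage. On quantile-normalized values the margin of the MT2B copy was -0.90, so its place as MG-high depended on the scale.

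**Figure D5:**
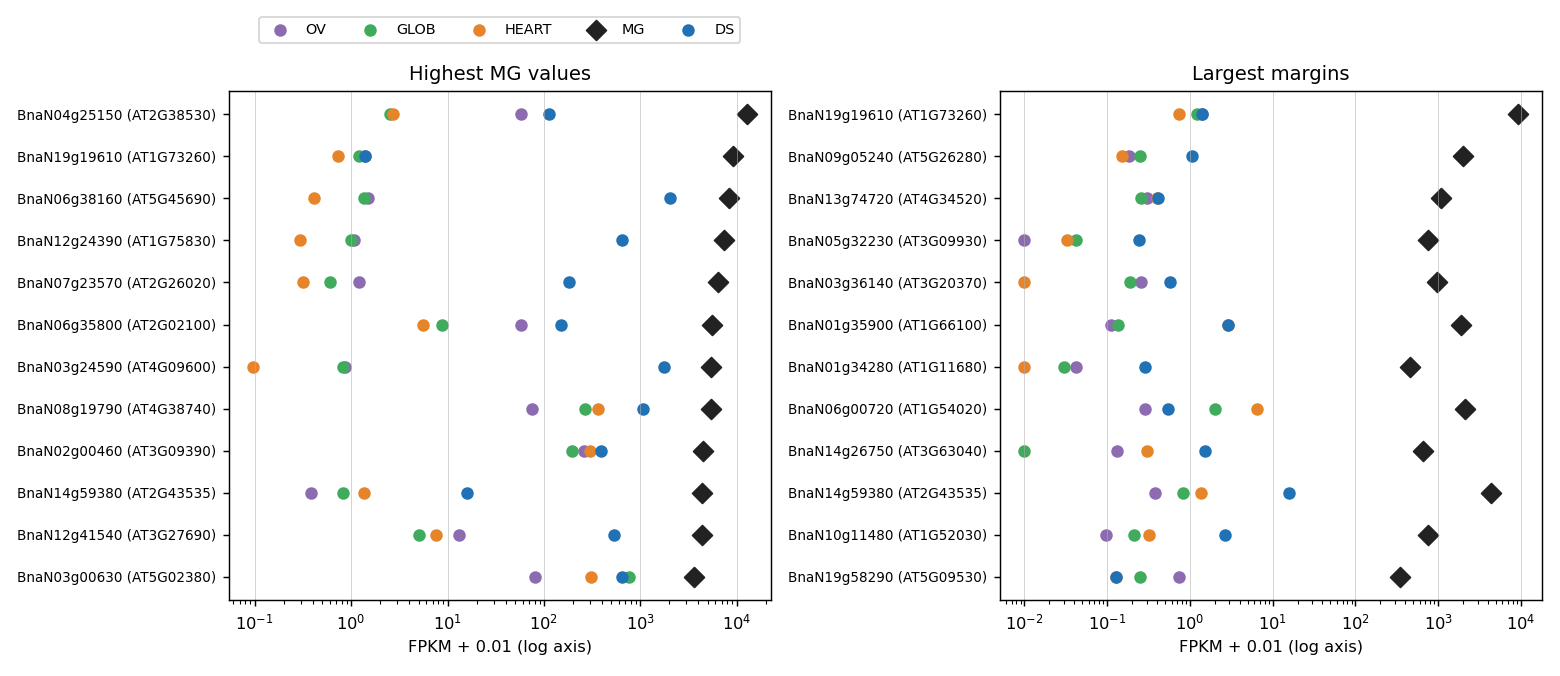
FPKM in the 5 stages, on a log axis of FPKM + 0.01, of the 12 named members with the highest MG value (left) and the 12 with the largest margin (right), with MG as diamonds and the other stages as dots. KTI1 reached 9193 FPKM in MG against 1.39 FPKM in DS, while MT2B had 3638 FPKM in MG against 760 FPKM in GLOB and was not MG-high on quantile-normalized values.

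The members with the largest margins were nearly silent outside MG. KTI1 on BnaN19g19610 had a margin of 11.91, with 1.38 FPKM in OV and 1.2 in GLOB, 0.727 in HEART, then 9193 in MG and 1.39 in DS. BnaN09g05240 at AT5G26280, a TRAF-like protein, had 0.174 FPKM in OV and 0.238 in GLOB, 0.142 in HEART, then 2013 in MG and 1.04 in DS. BnaN03g36140 at AT3G20370, of the same family, had 0.247 FPKM in OV and 0.178 in GLOB, 0 in HEART, then 965 in MG and 0.563 in DS. Their margins were 9.95 and 9.27, on either side of that of the top FAE1 copy (9.60).

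The other genes with the largest margins were of mixed kinds. BnaN05g32230 at AT3G09930, a GDSL esterase or lipase, had 0 FPKM in OV and 0.0318 in GLOB, 0.0224 in HEART, then 765 in MG and 0.236 in DS. BnaN06g00720 at AT1G54020, of the same enzyme family, had 0.280 FPKM in OV and 2.01 in GLOB, 6.51 in HEART, then 2126 in MG and 0.535 in DS. BnaN01g34280 at AT1G11680, the sterol demethylase CYP51G1, had 0.0324 FPKM in OV and 0.0199 in GLOB, 0 in HEART, then 461 in MG and 0.272 in DS. The margins of these 3 genes were 9.28, 8.15 and 8.50. BnaN01g35900 at AT1G66100, a thionin, had 0.101 FPKM in OV and 0.124 in GLOB, 2.90 in HEART, then 1897 in MG and 2.84 in DS. BnaN10g11480, a copy of MBP2, had 0.0858 FPKM in OV and 0.200 in GLOB, 0.310 in HEART, then 750 in MG and 2.63 in DS. BnaN14g26750 at AT3G63040 had 657 FPKM in MG and a margin of 8.04, and BnaN19g58290 at AT5G09530, a proline-rich cell wall protein (PELPK1), had 349 FPKM in MG against 0.721 FPKM in OV.

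Members whose next stage was an early one included enzymes of general metabolism. BnaN15g15750 at AT1G19570, dehydroascorbate reductase DHAR1, had 66.2 FPKM in OV and 342 in GLOB, 177 in HEART, then 3311 in MG and 264 in DS. BnaN08g26950 at AT3G04120, the glycolytic dehydrogenase GAPC1, had 128 FPKM in OV and 387 in GLOB, 366 in HEART, then 1225 in MG and 58.5 in DS. BnaN08g27770 at AT1G11840, a glyoxalase, had 83.0 FPKM in OV and 403 in GLOB, 210 in HEART, then 934 in MG and 71.6 in DS. The last 2 did not keep MG as the highest stage on quantile-normalized values, with margins of -0.43 and -0.79, and the glyoxalase margin was -0.029 on a common sum. BnaN12g13100 at AT5G57560, the xyloglucan endotransglucosylase TCH4, had 4.28 FPKM in OV and 43.3 in GLOB, 69.5 in HEART, then 1058 in MG and 48.9 in DS, so HEART was its next stage. BnaN19g59650 at AT5G07460, a methionine sulfoxide reductase, had 42.2 FPKM in OV and 68.4 in GLOB, 46.7 in HEART, then 1016 in MG and 17.1 in DS. BnaN16g38360 at AT1G71695, peroxidase 12, had 236 FPKM in OV and 212 in GLOB, 164 in HEART, then 925 in MG and 4.54 in DS and a margin of -0.60 on quantile-normalized values. BnaN13g14460 at AT5G55620 had 852 FPKM in MG against 49.5 FPKM in HEART, and BnaN07g22090 at AT1G79690, a Nudix hydrolase (NUDT3), had 725 FPKM in MG against 26.7 FPKM in GLOB.

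Of the 38 members without an Arabidopsis locus, the 4 highest were BnaN19g40740, BnaN14g48750, BnaN04g18220 and BnaN18g51040. BnaN19g40740 had 0 FPKM in OV and 0.221 in GLOB, 4.44 in HEART, then 1226 in MG and 18.8 in DS. BnaN14g48750 had 1149 FPKM in MG against 77.2 FPKM in DS, and BnaN04g18220 had 948 FPKM in MG against 122 FPKM in DS. BnaN18g51040 had 6.34 FPKM in OV and 32.2 in GLOB, 179 in HEART, then 372 in MG and 2.91 in DS, with HEART close behind MG, and its margin was -0.29 on a common sum and -0.24 on quantile-normalized values.

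Brassica napus carries related copies of most Arabidopsis genes on its A and C subgenomes. Many copies could not be members in any case, as 19509 of all 96219 genes had at least 5 FPKM in MG. Of the 1429 loci with several copies in the table and at least 1 member, every copy was a member in 145. Of the 1124 loci with several copies at 5 FPKM or more in MG and at least 1 member, every such copy was a member in 355. Members divided evenly between the subgenomes, with 1156 on A and 1114 on C chromosomes, 49.1% on C against 50.0% of all genes with at least 5 FPKM in MG. The chromosome number came from the identifier. Per chromosome, between 10.1% (chromosome 6) and 14.0% (chromosome 4) of the genes with at least 5 FPKM in MG were such members.

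Among 6093 loci with exactly 1 copy on A and 1 on C, both copies had at least 5 FPKM in MG in 1388, and 227 of those had a member. Of all 6093, 295 had a member. Both copies were members in 116, the A copy alone in 102 and the C copy alone in 77. In the 179 pairs with 1 member, the other copy was under 5 FPKM in MG in 68, was highest in MG by less than 2-fold in 81 and was higher in another stage in 30. Of the 116 pairs with both copies as members, 79 had the same next stage, and 29 differed by at least 2-fold in MG, 17 of them with the A copy higher and 12 with the C copy higher. The sources used here do not give how reads common to near-identical copies were divided, which makes the value of any single copy uncertain.

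Members lay beside each other in 105 of the 5198 neighbouring gene pairs in which both genes had at least 5 FPKM in MG, and 1129 of these pairs had at least 1 member. In 13 of the 105 the neighbours shared an Arabidopsis locus. Of all 19509 genes with at least 5 FPKM in MG, 2304 were such members. Whether members lay beside each other more often than this share gives was not tested.

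At the threshold the members merged into the rest. Between margins of 0.5 and 1 lay 1791 genes that were not members, and between 1 and 1.5 lay 862 members. Just inside were BnaN05g28050 at AT3G15180, BnaN09g01010 at AT4G01410 and BnaN13g09660 at AT5G18790, each with a margin of 1.00 and MG values of 52.3, 79.9 and 23.7 FPKM against 25.6, 39.4 and 11.3 FPKM in the next stage. Just outside were BnaN07g17560 at AT3G53990, BnaN03g26290 at AT4G02930 and BnaN03g23930 at AT5G50370, with MG values of 335, 43.8 and 92.2 FPKM against 167, 21.4 and 45.7 FPKM.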

How the data were processed

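Polyadenylated RNA from 14 libraries of ovules and seeds was sequenced as single-end reads of 100 bases, per the labels' protocols, which name Trimmomatic (version 0.36), HiSat2 with the DH12075 genome, Cuffquant and Cuffdiff. The submitters' processing notes also name TopHat2 and Cuffnorm. The annotation version and the way replicates were combined are not given in the sources used here. The authors deposited FPKM values, 1 per gene and stage, with Arabidopsis loci for 87904 of 96219 genes. The table's 2 columns that match no sample described here were not used.

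Margins were computed with Python (3.11.15), pandas (2.3.3) and numpy (2.4.6) on log2(FPKM + 1), which understates differences of low genes, and figures were drawn with matplotlib (3.10.9). With 1 value per stage, no test, standard deviation, interval or p-value was possible, and depth is unknown. The counting code was tested on simulated data. An exact 0 may be a failed estimate and is called listed at 0.

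The members and lists were chosen with earlier results of these data known. Named genes follow a rule, with 1 gene per Arabidopsis locus. It takes the 12 highest in MG, the 12 with the largest margin, the highest copy of each listed gene, the 4 highest without a locus, the 12 highest with an earlier stage next, and the 3 nearest to the threshold on each side among genes with at least 20 FPKM in MG. Listed loci without a member were named after their values were seen. Chromosomes were put on A or C by the letter most of their paired Darmor identifiers carry. Alternatives were a pseudocount of 0.1, other filters, other scalings, a margin of at least 2 and leaving out DS or HEART. A description of promoter motifs was planned and not run. A result on 1 marker gene is not reported here.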

Additional observations from a re-analysis of the deposited data

How the results depend on the processing

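No paired analysis was possible because the table gives 1 value per stage, and replicates could not be left out in turn for the same reason. The common sum relative to the median shift, and the common sum without genes at 1000 FPKM or more in MG, were added after seeing the data. A count moved when it changed by over 1.5 times, and 55 comparison values moved while 109 did not. Among lists and named genes, 154 values moved, 23 medians or margins of at least 1 in size changed sign, and 542 did neither. A median of ratios and a pseudocount of 0.1 moved no count of a comparison. The sums of the deposited columns differ, so the common sum was the alternative that lowered MG most.

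On a common sum the members were 1010, or 958 without storage proteins and oleosins, with OV next in 165, GLOB in 88, HEART in 275 and DS in 401, and the lists held 106. MG was then higher than OV in 3227 genes, than GLOB in 3219, than HEART in 2786 and than DS in 4482, and OV had 2842 stage-high genes. Of medians and margins of at least 1 in size, the sign turned for the plastid fatty acid list (-0.088), for copies of CER10 (-0.15), MIPS1 (-0.14), LHCB4.3 (-0.35), LACS9 (-0.067), BCCP1 (-0.62), HAD (-0.12), GPAT9 (-0.19), CAC3 (-0.19), MRP5 (-0.31) and KASIII (-0.19), and for BnaN08g27770 (-0.029), BnaN18g51040 (-0.29) and BnaN13g09660 (-0.20). Smaller list medians also turned negative, for triacylglycerol assembly (-0.61), other oil body proteins (-0.27), maturation regulators (-0.27), phytate (-0.54), tocopherol (-0.83) and amino acid transporters (-0.95). Relative to the median shift, OV was next in 461 members.

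Quantile normalization gave 264 members with GLOB next and 1953 OV-high genes, and turned BnaN03g00630 (-0.90), BnaN08g26950 (-0.43), BnaN08g27770 (-0.79), BnaN16g38360 (-0.60) and BnaN18g51040 (-0.24). A minimum of 1 FPKM, or none, gave 1932 OV-high and 1175 HEART-high genes, and with none the sucrose list had a median margin of -0.090.

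With at least 20 FPKM the members were 1482, or 1429 without storage proteins and oleosins, with OV next in 158, HEART in 323 and DS in 666. MG was then higher than OV in 4595 genes, than GLOB in 3532, than HEART in 3721 and than DS in 3537, and the stage-high genes were 307 for OV, 202 for GLOB, 301 for HEART and 2466 for DS. With a margin of at least 2 the members were 999, or 948 without storage proteins and oleosins, with OV next in 130, GLOB in 115, HEART in 260 and DS in 414, and the lists held 104. MG was then higher than OV in 4118 genes, than GLOB in 3352, than HEART in 3059 and than DS in 3544, and the stage-high genes were 329 for OV, 39 for GLOB, 303 for HEART and 1388 for DS. Both settings are stricter by construction.

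Without DS the members were 4923, or 4864 without storage proteins and oleosins, with OV next in 1380, GLOB in 1476 and HEART in 1875. The lists then held 325, and the medians of the LEA (7.82), heat shock (2.65) and abscisic acid (0.13) lists turned positive. By construction, leaving out a stage can only keep or raise the margin of a gene. Without HEART, GLOB was next in 916 members and there were 3152 GLOB-high genes. The causes of the changes under these settings were not tested.

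Depth per library and the spread between libraries are unknown, which limits every value above, and the promoter description was not run.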

Other observations

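Several loci outside the lists had many member copies, and these were chosen after their values were seen. SDI1 (AT5G48850), a gene of the response to sulfur shortage in Arabidopsis, had 60.4 FPKM in OV and 4.06 in GLOB, 4.41 in HEART, then 1062 in MG and 41.1 in DS, and its 6 copies were all members. SULTR3;4 (AT3G15990), a transporter of the sulfate transporter family, had 0.381 FPKM in OV and 1.46 in GLOB, 3.48 in HEART, then 82.2 in MG and 0.0646 in DS, with all 5 copies with at least 5 FPKM in MG as members. The phenylpropanoid enzyme C4H (AT2G30490) had 4.13 FPKM in OV and 13.0 in GLOB, 69.5 in HEART, then 233 in MG and 67.3 in DS, with 4 of 6 such copies, and a synthase at the entry of the shikimate pathway (AT1G22410) had 16.8 FPKM in OV and 24.4 in GLOB, 52.4 in HEART, then 306 in MG and 61.3 in DS, with 5 of 5.

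Amino acid enzymes were among these loci too. THA1 (AT1G08630), a threonine aldolase, had 89.8 FPKM in OV and 50.5 in GLOB, 48.2 in HEART, then 871 in MG and 33.4 in DS, with 5 of 5 such copies, and the glutamate decarboxylase GAD2 (AT1G65960) had 13.9 FPKM in OV and 52.2 in GLOB, 31.9 in HEART, then 2338 in MG and 361 in DS, with 4 of 5. The translation factor eEF1A (AT5G60390) had 1465 FPKM in OV and 2122 in GLOB, 1808 in HEART, then 3903 in MG and 2233 in DS, with 5 of 11. Unlike SDI1 and THA1, eEF1A was abundant at every stage.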
